A study of Mus musculus with 21 samples.

Results

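Transcript levels of 37 genes of fatty acid oxidation and ketone body metabolism were followed in whole mouse liver. The genes were chosen by symbol, and all 37 were found in each of the 21 count files, which hold 55418 symbols. All 37 were among the 15677 genes with enough reads to be tested. By role, 5 belong to the carnitine shuttle, 8 to the mitochondrial beta-oxidation cycle, 4 handle double bonds, 3 pass electrons to the respiratory chain, 5 belong to peroxisomal beta-oxidation, 4 to omega-oxidation, 4 are acyl-CoA thioesterases, 2 are ketone body enzymes, and 2 are Pdk4 and Vnn1. The rule used gene symbols and no measured value, but the members were chosen with earlier results of these data known. Shares of members set beside those of all genes are therefore descriptions. Of ketone body metabolism the set holds only Bdh1 and Acat1, and other genes of that pathway were not analysed here.

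The mice were wild type (WT) or lacked Mboat7 in hepatocytes (KO). Mboat7 encodes an acyltransferase that transfers arachidonic acid to lysophosphatidylinositol. The promoter that drives the deletion, the strain and the sex are not given in the sources used here. In every liver the Y-linked genes Ddx3y, Eif2s3y, Kdm5d and Uty had 0 to 4 counts and Xist, the X-inactivation transcript of female cells, had 119 to 1024 CPM, the pattern of female animals. There were 6 WT and 7 KO livers from mice on chow at 10 weeks of age. A further 4 WT and 4 KO livers came from mice fed for 6 weeks on a high-fat diet deficient in choline and with little methionine (HFMCD), started at 6 to 8 weeks of age. Diet therefore went with age, and the animals' numbers also fell in separate ranges for each diet, so that these cannot be told apart from diet. Nothing in the labels says more about how far the livers of a group were raised or handled together, so p-values measure the spread between these livers.

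Fatty acids enter mitochondria as carnitine esters, made by Cpt1a at the outer membrane and turned back into acyl-CoA by Cpt2 inside. Each turn of beta-oxidation then removes an acetyl-CoA unit, with separate enzymes for long, medium and short chains, while very long and branched chains are first shortened in peroxisomes and Cyp4a enzymes oxidise the far end of the chain. In liver much of the acetyl-CoA becomes ketone bodies, and many of these genes are known targets of the fatty acid sensor PPAR-alpha, encoded by Ppara. In a whole-liver library, fewer cells of a type and less RNA per cell cannot be told apart.

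Libraries held 17502231 to 23058789 counts on chow and 22617598 to 25822972 on HFMCD, and levels are given as CPM, the count relative to the total over tested genes after TMM scaling. Mboat7 ranged on chow from 33.0 to 39.7 CPM (median 36.1) in WT and from 18.8 to 24.1 CPM (median 21.8) in KO livers, and on HFMCD it was at 34.7, 35.6, 36.6 and 38.1 CPM in WT and at 20.8, 15.8, 18.8 and 20.2 CPM in KO livers. Every KO liver was below every WT liver of its diet, with log2 fold changes of -0.76 (edgeR adjusted p = 3.9e-06, SE 0.07) on chow and -0.94 (edgeR adjusted p = 7.5e-06, SE 0.09) on HFMCD. The defining hepatocyte transcript Alb ran from 56868 to 97639.8 CPM over all livers. Of the chow livers, KO replicate 7 held skeletal muscle transcripts that summed to 2060.5 CPM over 10 markers, against at most 2.24 CPM in any other liver. The gland transcript Dmbt1 reached 95.6 CPM in KO replicate 1, 54.6 in KO replicate 7, 41.7 in WT replicate 3 and 27.6 in WT replicate 5 on chow. For KO against WT on chow, the count of called members is given also without these livers. The counts for diet include them.

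Per kb of exon, the most abundant member in WT chow livers was Cyp4a14 at 4587 CPM per kb, followed by Cyp4a10 at 2337, Ehhadh at 1336, Acaa1b at 1062 and the mitochondrial thiolase Acaa2 at 739.5. The lowest were Cyp4a12a at 0.135, Acot2 at 26.3 and Cyp4a31 at 28.9 CPM per kb. The level of Cyp4a12a, known from other work to be far higher in male than in female mice, stayed at or under 2.14 CPM in every liver. The 37 members summed to 3.60% ± 0.466 (SD, n = 6) of the tested counts in WT chow livers, 2.68% ± 0.219 (SD, n = 7) in KO chow, 1.53% ± 0.348 (SD, n = 4) in WT HFMCD and 1.18% ± 0.0986 (SD, n = 4) in KO HFMCD livers. Cyp4a10 and Cyp4a14 alone made up 46.5% of that sum in WT chow and 19.3% in KO HFMCD livers.

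**Figure D1:**
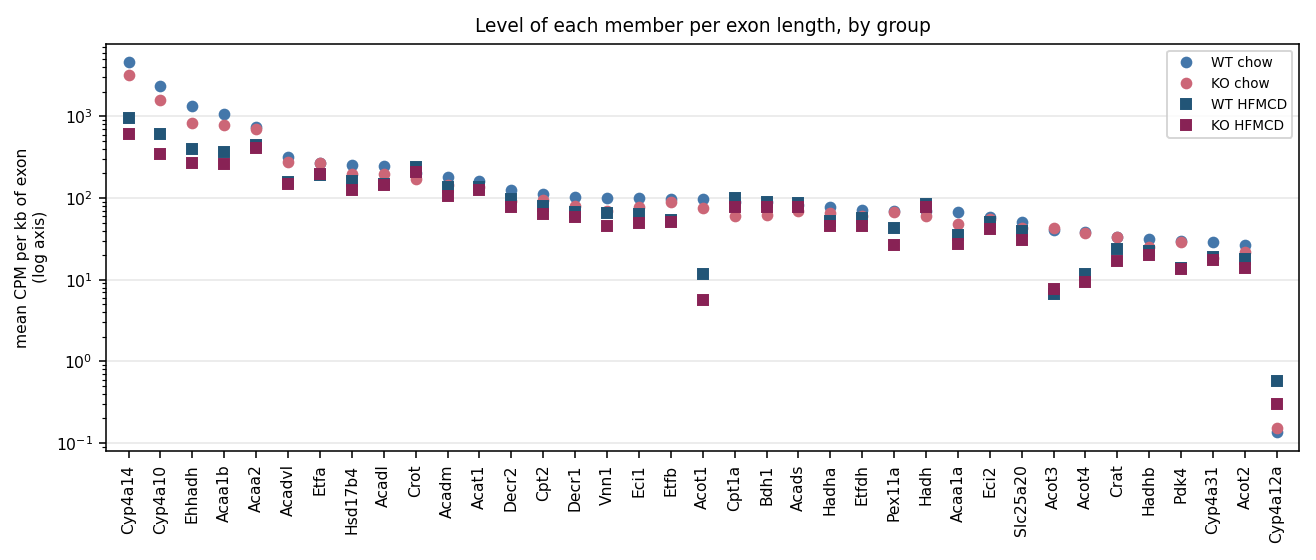
Mean level of each member per kb of exon (vertical log axis, CPM per kb) in the 4 groups, ordered from left to right by the level in WT chow livers. Cyp4a14 stood at 4587 CPM per kb in WT chow and 601 in KO HFMCD livers, and Cyp4a12a lay below all other members in every group.

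On chow, KO livers had lower levels of enzymes from several steps of fatty acid oxidation. Cpt1a, Acadl, Decr1, Decr2, Acaa1a and Hsd17b4 fell, with log2 fold changes of -0.58 to -0.31, and no member rose. These 6 of 37 members stand against 1.61% of all tested genes called lower in the same comparison, in which 0.561% were called higher. In 5 members, Cpt1a, Slc25a20, Acadl, Decr1 and Acaa1a, every KO liver was below every WT liver, as in 0.421% of all genes. Of the members, 34 had a log2 fold change below 0, against 47.9% of all genes. The median over the members was -0.26, and that over all tested genes was 0.01. An unadjusted p under 0.05 was found for 24 members and for 17.9% of all genes.

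In the carnitine shuttle, Cpt1a, the controlled entry step of long-chain fatty acids into mitochondria (chr19:3322334-3385733, GRCm38), ranged from 584 to 941 CPM (median 611) in WT and from 354 to 545 CPM (median 464) in KO livers on chow. Every KO liver was below every WT liver. The log2 fold change was -0.58 (edgeR adjusted p = 0.019, SE 0.12). Slc25a20, the carrier that exchanges acylcarnitine for carnitine across the inner membrane, also had no overlap, with 229.6 to 266 CPM (median 239.7) in WT and 195 to 222 CPM (median 206) in KO livers, but did not pass the threshold at -0.22 (edgeR adjusted p = 0.16, SE 0.08). The other members were not called: the inner-membrane transferase Cpt2 had a log2 fold change of -0.26, the octanoyl transferase Crot -0.24 and the acetyl transferase Crat 0.01.

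In the mitochondrial cycle 1 of 8 members fell and all 8 log2 fold changes were below 0. Acadl, the long-chain acyl-CoA dehydrogenase (chr1:66830839-66863277), ranged from 451 to 555 CPM (median 491) in WT and from 359 to 439 CPM (median 391) in KO livers. The groups did not overlap, and the log2 fold change was -0.31 (edgeR adjusted p = 0.028, SE 0.07). The medium-chain dehydrogenase Acadm came next at -0.32 (edgeR adjusted p = 0.053, SE 0.09). The short-chain dehydrogenase Acads, the very-long-chain dehydrogenase Acadvl, both subunits of the trifunctional protein (Hadha and Hadhb), the short-chain hydroxyacyl-CoA dehydrogenase Hadh and the thiolase Acaa2 had log2 fold changes from -0.32 to -0.08, none of them called.

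Unsaturated fatty acids need further enzymes to move or reduce their double bonds, and 2 of these 4 members fell. Decr1, the mitochondrial 2,4-dienoyl-CoA reductase (chr4:15917240-15945507), ranged from 352 to 488 CPM (median 397) in WT and from 271 to 340.2 CPM (median 309) in KO livers, with no overlap and a log2 fold change of -0.39 (edgeR adjusted p = 0.032, SE 0.09). Its peroxisomal counterpart Decr2 (chr17:26081208-26090337) ranged from 271 to 381 CPM (median 343) in WT and from 199.6 to 314 CPM (median 252) in KO livers. These groups overlapped, and the log2 fold change was -0.47 (edgeR adjusted p = 0.025, SE 0.11). The isomerase Eci1 had -0.35 (edgeR adjusted p = 0.067, SE 0.10) and Eci2 -0.08. The electron transfer flavoprotein subunits Etfa and Etfb and their dehydrogenase Etfdh were not called, at -0.01, -0.14 and -0.24.

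In peroxisomal beta-oxidation 2 of 5 members fell. The thiolase Acaa1a (chr9:119339676-119350299) ranged from 231 to 366 CPM (median 306) in WT and from 182 to 226 CPM (median 218) in KO livers, without overlap, and its log2 fold change was -0.50 (edgeR adjusted p = 0.025, SE 0.11). The D-bifunctional protein Hsd17b4, which carries out the hydration and dehydrogenation of very long and branched chains, ranged from 733 to 1023 CPM (median 849.5) in WT and from 588 to 787 CPM (median 656) in KO livers. The highest KO liver reached into the WT range, and the log2 fold change was -0.39 (edgeR adjusted p = 0.028, SE 0.09). Ehhadh, the L-bifunctional protein, had the lowest log2 fold change of all members at -0.69 (edgeR adjusted p = 0.074, SE 0.20), with 2948 to 5066 CPM (median 3995) in WT and 1822 to 3382 CPM (median 2345) in KO livers, and did not pass. Neither did the second thiolase Acaa1b, at -0.43 (edgeR adjusted p = 0.075, SE 0.13), or the peroxisome division factor Pex11a, at -0.04. Of the 50-base words of Acaa1a 12.4% also occur in Acaa1b, so that the counts of Acaa1a are uncertain.

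No member of the other roles was called on chow. In omega-oxidation, the fatty acid hydroxylases Cyp4a10 and Cyp4a14 had log2 fold changes of -0.55 (edgeR adjusted p = 0.19, SE 0.22) and -0.50 (edgeR adjusted p = 0.23, SE 0.22), and Cyp4a31 -0.66. The thioesterases Acot1 to Acot4, which release free fatty acids from acyl-CoA, lay between -0.35 and 0.09. Of the ketone body enzymes, the hydroxybutyrate dehydrogenase Bdh1 had -0.51 (edgeR adjusted p = 0.071, SE 0.15) and the acetoacetyl-CoA thiolase Acat1 -0.26. The pantetheinase Vnn1 had -0.51 (edgeR adjusted p = 0.18, SE 0.20). Pdk4, which blocks the use of pyruvate in favour of fatty acids, had -0.03 and spread more than most members, from 40.4 to 139.9 CPM (median 116) in WT and from 21.8 to 258 CPM (median 64.8) in KO livers, of which the highest was replicate 7. That is the liver with the muscle transcripts, and their part in its Pdk4 level was not tested.

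**Figure D2:**
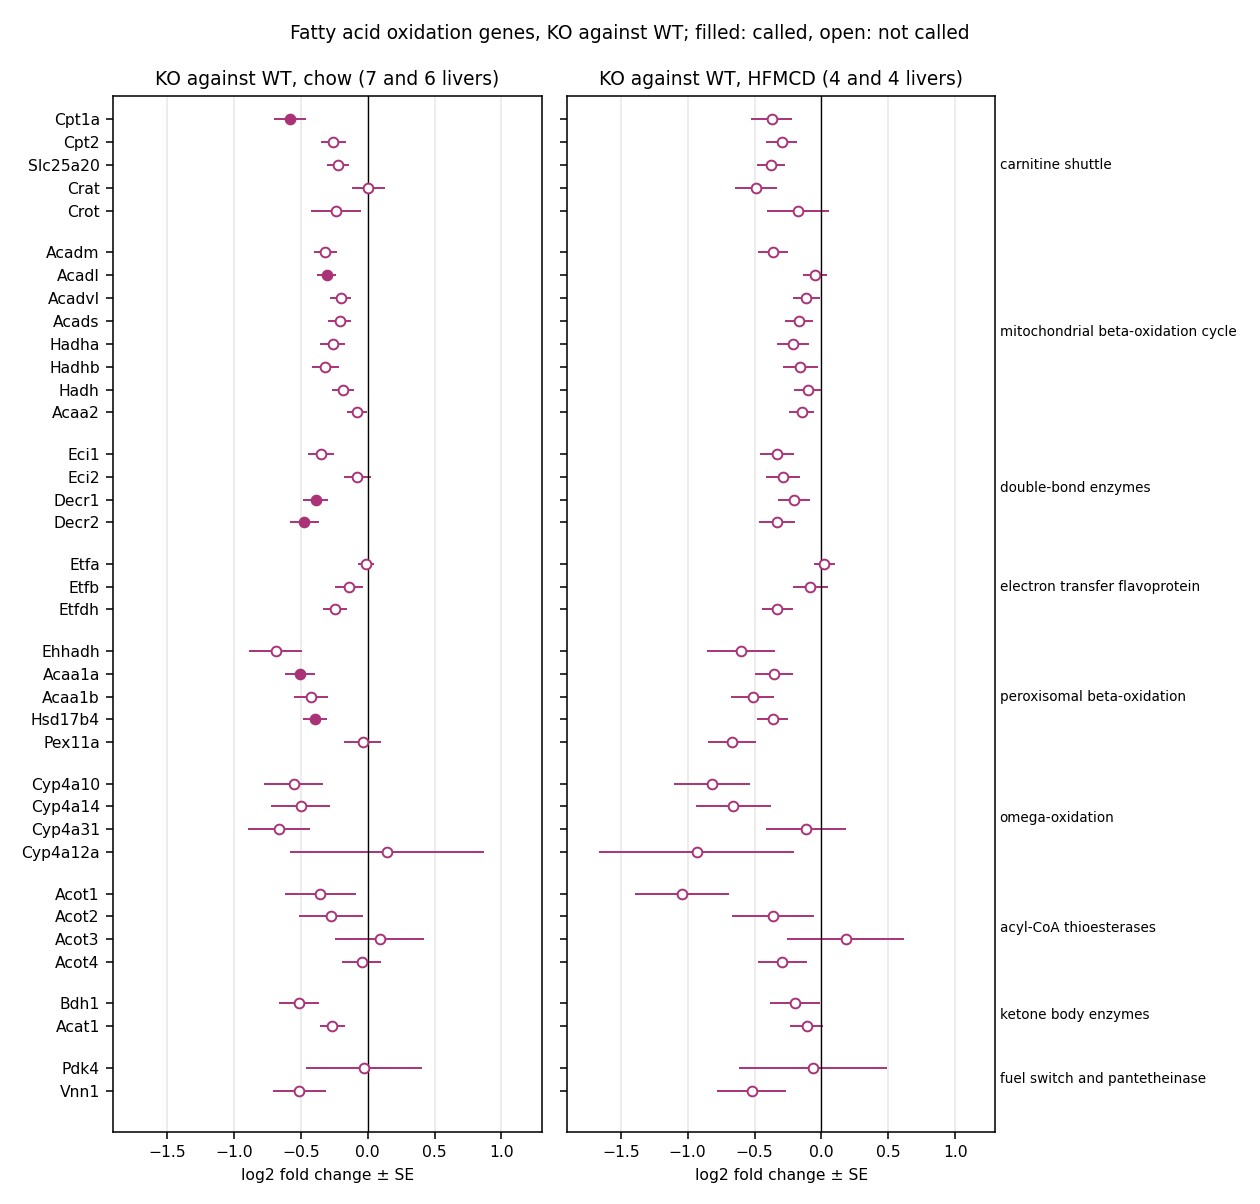
Log2 fold change of KO against WT (horizontal axis, points with SE) for each of the 37 members by role, on chow at the left and on HFMCD at the right; filled points passed the threshold. On chow 34 points and on HFMCD 35 points lie below 0, and 6 and 0 of them are filled.

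The calls on chow changed with the model and with single livers. DESeq2 called 12 members, all lower, and limma-voom 1. In an edgeR fit to the 13 chow livers alone 0 of 36 members tested were called, with adjusted p of 0.073 to 0.091 for the 6, and over all genes that fit called 2. Leaving out KO chow replicate 6, WT chow replicate 5 or WT chow replicate 6 left 0 members, leaving out KO chow replicate 1 or 4 left Cpt1a only, and leaving out WT chow replicate 4 left Cpt1a and Hsd17b4, whereas 10 were called without WT chow replicate 1 or WT HFMCD replicate 4 and 9 without KO chow replicate 7. Without KO chow replicates 1 and 7, or without all 4 livers with Dmbt1, Cpt1a was the 1 member called. The direction was the same in these fits, with 32 to 35 of the members below 0.

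Of 10 genes that follow feeding, 1 was called lower and 1 higher in KO livers on chow, and 8 had a log2 fold change below 0, with a median of -0.22. Values are given for 3 of them. The lipid droplet gene Cidec fell, at -2.30 (edgeR adjusted p = 0.035, SE 0.53), with 7.46 to 84.3 CPM (median 25.5) in WT and 2.77 to 10.8 CPM (median 6.34) in KO livers. The fasting-induced genes Igfbp1 and Pck1 overlapped, at 176 to 3187 CPM (median 326) and 2936 to 7304 CPM (median 4504) in WT and 86.7 to 708 CPM (median 306) and 2546 to 5471 CPM (median 3988) in KO livers, and both were highest in WT replicate 6. The part of the animals' feeding state in the lower levels of the members was not tested.

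**Figure D3:**
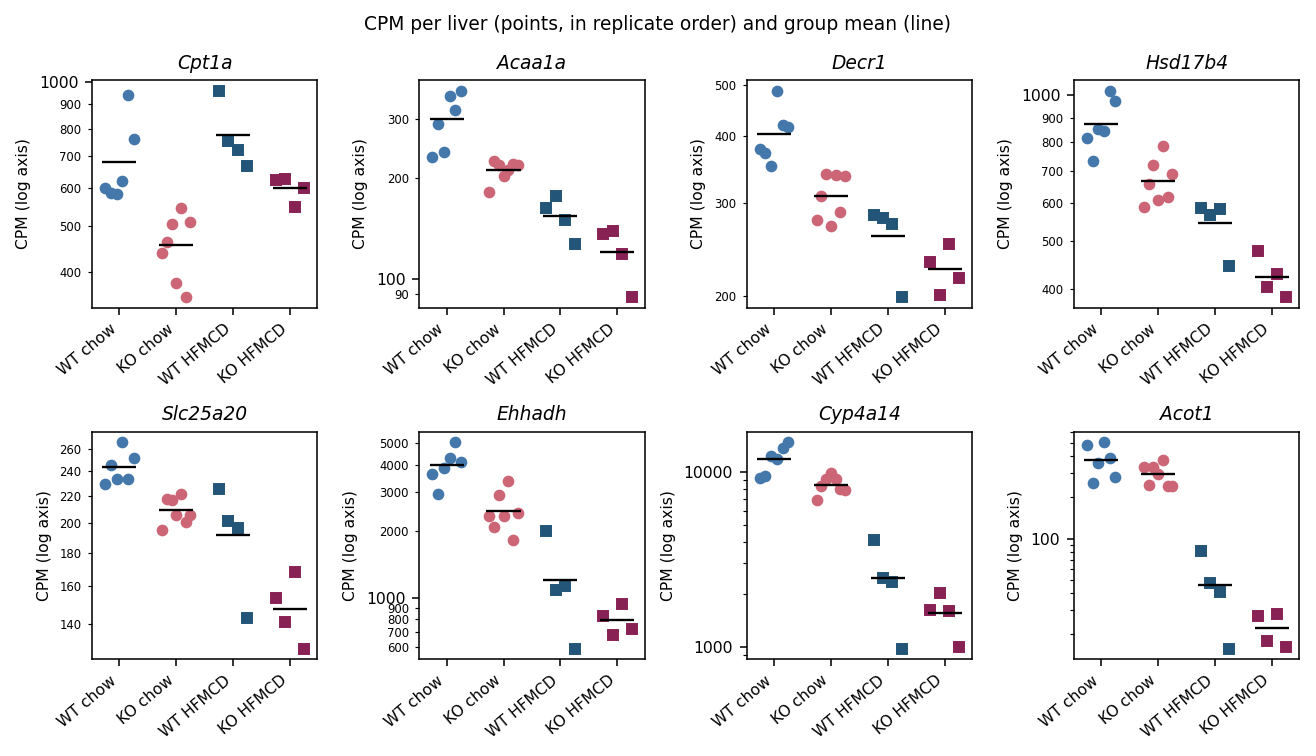
Level of 8 members in each liver (points in replicate order, CPM on a log axis) and group mean (line). Cpt1a, Acaa1a, Decr1 and Slc25a20 were lower in every KO than in every WT liver on chow. The fourth WT HFMCD liver lies below the other WT HFMCD livers in panels that include Cpt1a, Decr1, Hsd17b4, Slc25a20, Ehhadh, Cyp4a14 and Acot1.

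On HFMCD no member was called between KO and WT livers by edgeR, against 0.319% of all tested genes, while 17 members had an unadjusted p under 0.05 against 9.96% of all genes. DESeq2 called 2 members, Pex11a and Slc25a20, and limma-voom called 0. The log2 fold change was below 0 for 35 of 37 members and for 48.8% of all genes. Its median was -0.30 over the members and 0.01 over all genes. Of all members only Cpt1a was lower in every KO than in every WT liver, where 3.66% of all genes had such a gap. It was at 961, 753, 723 and 667 CPM in the 4 WT livers and at 624, 628, 547 and 599 CPM in the 4 KO livers, with a log2 fold change of -0.37 (edgeR adjusted p = 0.39, SE 0.15).

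The 5 members with the smallest p came from the shuttle, the mitochondrial cycle and the peroxisome. Pex11a was at 175, 139.9, 135 and 89.8 CPM in WT and at 89.6, 88.0, 96.5 and 65.6 CPM in KO livers. The fourth WT liver lay within the KO range, and the log2 fold change was -0.67 (edgeR adjusted p = 0.12, SE 0.18). The carnitine carrier Slc25a20 was at 225, 201, 196 and 143 CPM in WT and at 154, 141, 168 and 128 CPM in KO livers. Again WT replicate 4 alone reached into the KO range, and the log2 fold change was -0.38 (edgeR adjusted p = 0.15, SE 0.11).

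Acadm, which starts the oxidation of medium chains, was at 599.6, 563, 537 and 436 CPM in WT and at 449.8, 452, 379.9 and 379 CPM in KO livers, a log2 fold change of -0.36 (edgeR adjusted p = 0.18, SE 0.11). Hsd17b4 was at 586, 567, 583 and 445 CPM in WT and at 477, 403, 429 and 383 CPM in KO livers, a log2 fold change of -0.37 (edgeR adjusted p = 0.21, SE 0.12). Acaa1b was at 807, 831, 793 and 461 CPM in WT and at 611, 393, 579 and 444 CPM in KO livers, a log2 fold change of -0.51 (edgeR adjusted p = 0.20, SE 0.16). In all 3 genes WT replicates 1 to 3 were above every KO liver and WT replicate 4 was not.

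Outside these, the lowest log2 fold change was that of the cytosolic thioesterase Acot1, at -1.04 (edgeR adjusted p = 0.27, SE 0.35), followed, apart from Cyp4a12a, by Cyp4a10 at -0.82 (edgeR adjusted p = 0.30, SE 0.28) and Cyp4a14 at -0.66 (edgeR adjusted p = 0.43, SE 0.28). The remaining members lay between -0.60 for Ehhadh and 0.18 for Acot3, the latter and Etfa being the 2 members above 0, apart from Cyp4a12a, which averaged 1.40 CPM in WT and 0.733 CPM in KO livers, at -0.93. Bdh1 and Acat1 had -0.20 and -0.11, and Vnn1 and Pdk4 -0.52 and -0.06. Bile duct cell markers were higher in the same KO livers, with 5 of 8 called and sums of 77.2 to 109.5 CPM in KO against 42.7 to 50.5 CPM in WT livers. Stellate cell and matrix marker sums were also higher without overlap, at 853 to 952 against 605 to 777 CPM, with 0 of 9 called, and endothelial sums were lower without overlap, at 395 to 412 against 416 to 481 CPM, with 0 of 8 called. Hepatocyte marker sums overlapped, at 102167 to 110054 against 104993 to 120833 CPM, with 0 of 11 called, 8 below 0 and a median log2 fold change of -0.22. Macrophage marker sums overlapped, at 2127 to 2741 against 2178 to 2558 CPM. The part of these cells in the levels of the members was not tested.

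Single libraries weighed on this comparison. Without WT HFMCD replicate 4 the median over the members was -0.41, and 2 members were called, Crat and Slc25a20, the latter at -0.49 (edgeR adjusted p = 0.044). Pex11a was then at -0.82 (edgeR adjusted p = 0.060), Acaa1b at -0.68 (edgeR adjusted p = 0.072), Acadm at -0.45 (edgeR adjusted p = 0.098) and Hsd17b4 at -0.45 (edgeR adjusted p = 0.11). Leaving out some other libraries weakened these values. Over the 21 fits without 1 library, Slc25a20 reached -0.29 and Pex11a -0.52, with edgeR adjusted p of up to 0.40 and 0.34. Acaa1b, Acadm and Hsd17b4 reached -0.41, -0.31 and -0.32, with edgeR adjusted p of up to 0.51, 0.43 and 0.48.

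The effect of the deletion was compared between diets by the interaction term, in which KO on HFMCD minus WT on HFMCD is set against the same difference on chow. No member was called, nor any of the 15677 genes (0%), by edgeR, although 3 members and 10.1% of all genes had an unadjusted p under 0.05. DESeq2 called 97 genes and limma-voom 10, none of them members. The 3 members with the smallest p were Pex11a at -0.63 (edgeR adjusted p = 0.33, SE 0.22), Crat at -0.50 (edgeR adjusted p = 0.40, SE 0.20) and Acadl at 0.25 (edgeR adjusted p = 0.45, SE 0.11). Crat, which buffers acetyl-CoA as acetylcarnitine, ranged from 157 to 207 CPM (median 181) in WT and 157 to 217 CPM (median 176) in KO chow livers, and stood at 174, 132, 133 and 79.1 CPM in WT and 99.7, 84.3, 95.6 and 88.7 CPM in KO HFMCD livers. Acadl stood at 318, 313, 309 and 258 CPM in WT and at 293, 299, 290.0 and 274 CPM in KO HFMCD livers, which overlapped, in contrast to its gap on chow. Pex11a on chow ranged from 202 to 264 CPM (median 217) in WT and from 157 to 279.9 CPM (median 218) in KO livers.

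Most members differed between the diets, and in WT livers HFMCD against chow went with lower levels in nearly every role. Age and animal numbers differed between the diets too and cannot be told apart from diet. Of 37 members 26 fell and 2 rose, against 33.6% and 29.0% of all tested genes. The diets did not overlap in 22 members that were lower and 1 that was higher. Over all 15677 genes this held for 3778 that were lower and 3629 that were higher, so a gap between diets was common. The median log2 fold change was -0.61 over the members and -0.05 over all genes. The WT chow livers are also the controls of the KO chow livers, and both sets of values share them.

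The smallest p belonged to Acadvl, the dehydrogenase that starts the mitochondrial oxidation of the longest chains (chr11:70010183-70015411). It ranged from 758 to 950.5 CPM (median 859.7) on chow and stood at 442, 440.3, 449.8 and 379.6 CPM on HFMCD. There was no overlap, and the log2 fold change was -1.01 (edgeR adjusted p = 3.4e-09, SE 0.09). Its exons lie in part over Dvl2 on the other strand, whose reads cannot be told apart without a stated strand setting. In these WT livers the dehydrogenases for shorter chains had log2 fold changes nearer 0. Acadl, for long chains, ranged from 451 to 555 CPM (median 491) on chow, with the HFMCD values above, and had -0.72 (edgeR adjusted p = 1.0e-07, SE 0.08). Acadm, for medium chains, had -0.41 (edgeR adjusted p = 0.0013, SE 0.10), and Acads, for short chains, was not called at 0.10 (edgeR adjusted p = 0.38, SE 0.10).

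A ratio between members within a liver does not depend on how libraries are scaled. Acadvl per Acads, both per kb, averaged 3.96 ± 0.330 (SD, n = 6) in WT chow and 1.83 ± 0.116 (SD, n = 4) in WT HFMCD livers, with ranges of 3.49 to 4.32 and 1.70 to 1.98. In KO livers the ratio was 3.99 ± 0.316 (SD, n = 7) on chow and 1.90 ± 0.0894 (SD, n = 4) on HFMCD. The diets did not overlap in either genotype, and the genotypes overlapped on each diet.

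The last steps of the mitochondrial cycle also split. Hadha and Hadhb, the subunits of the long-chain trifunctional protein, fell at -0.58 (edgeR adjusted p = 7.3e-05, SE 0.11) and -0.50 (edgeR adjusted p = 9.2e-04, SE 0.12), and the thiolase Acaa2 fell at -0.72 (edgeR adjusted p = 2.5e-07, SE 0.09). Hadh, which acts on shorter chains, rose: it ranged from 306 to 378 CPM (median 355) on chow and stood at 399, 447, 431 and 393 CPM on HFMCD, a log2 fold change of 0.27 (edgeR adjusted p = 0.017, SE 0.10). Without WT HFMCD replicate 2 its adjusted p was 0.056. Hadh per Hadha ranged from 0.781 to 1.12 in WT chow and from 1.40 to 1.88 in WT HFMCD livers, without overlap.

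Hadha and Hadhb start in opposite directions from one stretch of chromosome 5, with 272 bases between their start sites in the RefSeq promoter table (GRCm38.p6). The 250 bases before the start of Hadhb lie within that stretch and are shown because they lie between both genes, which both fell.
Hadhb, plus strand, chr5:30155003-30155252: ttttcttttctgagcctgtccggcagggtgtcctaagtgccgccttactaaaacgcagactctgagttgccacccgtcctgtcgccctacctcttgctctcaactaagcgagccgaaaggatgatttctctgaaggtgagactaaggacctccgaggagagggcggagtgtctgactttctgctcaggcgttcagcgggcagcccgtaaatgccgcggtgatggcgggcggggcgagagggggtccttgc

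In the carnitine shuttle 3 of 5 members fell on HFMCD in WT livers: Cpt2 at -0.51 (edgeR adjusted p = 2.7e-04, SE 0.11), Slc25a20 at -0.34 (edgeR adjusted p = 0.0037, SE 0.10) and Crat at -0.49 (edgeR adjusted p = 0.0057, SE 0.15). Cpt1a was not called at 0.19 (edgeR adjusted p = 0.25, SE 0.14), nor was Crot at 0.24. Cpt1a per Cpt2, both per kb, was 0.794 ± 0.152 (SD, n = 6) in WT chow and 1.29 ± 0.141 (SD, n = 4) in WT HFMCD livers, and 0.632 ± 0.0614 (SD, n = 7) and 1.23 ± 0.183 (SD, n = 4) in KO livers. The outer and the inner transferase thus moved unequally with diet in both genotypes, without overlap between diets. Of the double-bond enzymes Eci1, Decr1 and Decr2 fell, at -0.66, -0.64 and -0.36, and Eci2 was not called at -0.22. Etfa, Etfb and Etfdh fell, at -0.48, -0.87 and -0.30.

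All 5 members listed under peroxisomal beta-oxidation fell on HFMCD in WT livers. Peroxisomal enzymes listed under other roles, such as Decr2 and Acot4, were not counted among these 5. Acaa1b, the thiolase known for its induction by peroxisome proliferators (chr9:119148023-119157093), ranged from 1673 to 2555 CPM (median 2083) on chow and stood at the HFMCD values given above, a log2 fold change of -1.53 (edgeR adjusted p = 1.3e-08, SE 0.16). Every HFMCD liver was below every chow liver. Ehhadh was at 2003, 1081, 1136 and 588 CPM on HFMCD and had -1.73 (edgeR adjusted p = 4.4e-06, SE 0.25). Acaa1a, Pex11a and Hsd17b4 had -0.96, -0.72 and -0.68.

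The 5 lowest log2 fold changes were those of the omega-hydroxylases Cyp4a14 and Cyp4a10 and of the thioesterases Acot1, Acot3 and Acot4. Cyp4a14 ranged from 9183 to 14857 CPM (median 12160.1) on chow and stood at 4065, 2485, 2338 and 971 CPM on HFMCD, a log2 fold change of -2.28 (edgeR adjusted p = 7.2e-07, SE 0.28). Cyp4a10 had -1.95 (edgeR adjusted p = 5.0e-06, SE 0.28), and Cyp4a31 was not called at -0.61 (edgeR adjusted p = 0.061, SE 0.27). Cyp4a12a rose, at 2.07 (edgeR adjusted p = 0.016, SE 0.71), from 0.0472 to 0.760 CPM (median 0.331) on chow to 2.14, 1.91, 0.887 and 0.648 CPM on HFMCD, a change of few counts that was not called without WT HFMCD replicate 1. Of its 50-base words 48.9% also occur in its near copy Cyp4a12b, so that its counts are uncertain.

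Among the thioesterases, Acot4, a peroxisomal enzyme for dicarboxylic acyl-CoA (chr12:84038379-84048601), ranged from 161 to 317 CPM (median 268) on chow and stood at 83.1, 87.5, 80.2 and 59.4 CPM on HFMCD. There was no overlap, and the log2 fold change was -1.73 (edgeR adjusted p = 2.6e-08, SE 0.18). Acot1 (chr12:84009490-84018371) ranged from 254 to 509 CPM (median 373) on chow and stood at 80.8, 47.3, 40.6 and 15.6 CPM on HFMCD, with -3.04 (edgeR adjusted p = 6.0e-07, SE 0.35), the lowest of all members. Acot3 had -2.58 (edgeR adjusted p = 5.2e-05, SE 0.43), whereas the mitochondrial Acot2, a neighbour on chromosome 12, was not called at -0.55 (edgeR adjusted p = 0.099, SE 0.28). Acot1 per Acot2, both per kb, ranged from 2.88 to 4.32 in WT chow and from 0.367 to 0.856 in WT HFMCD livers. Acot1 and Acot2 share part of their sequence, so that reads may have been split between them.

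Of the ketone body enzymes, Bdh1 had 0.02 (edgeR adjusted p = 0.92, SE 0.17) and Acat1 -0.25 (edgeR adjusted p = 0.054, SE 0.11) in WT livers, neither called. Vnn1 fell at -0.63 (edgeR adjusted p = 0.026, SE 0.24), and Pdk4, at -1.09 (edgeR adjusted p = 0.078, SE 0.52), did not pass. The calls of Decr2, Etfdh and Vnn1 were lost without WT HFMCD replicate 4, at -0.26 (edgeR adjusted p = 0.093), -0.21 (edgeR adjusted p = 0.10) and -0.48 (edgeR adjusted p = 0.10), and each was lost also without WT chow replicate 5. Those of Decr2 and Vnn1 were lost without WT chow replicate 4, that of Etfdh without WT chow replicate 6, and that of Vnn1 without WT HFMCD replicate 2. Over these fits the highest edgeR adjusted p was 0.093 for Decr2, 0.10 for Etfdh and 0.10 for Vnn1.

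**Figure D4:**
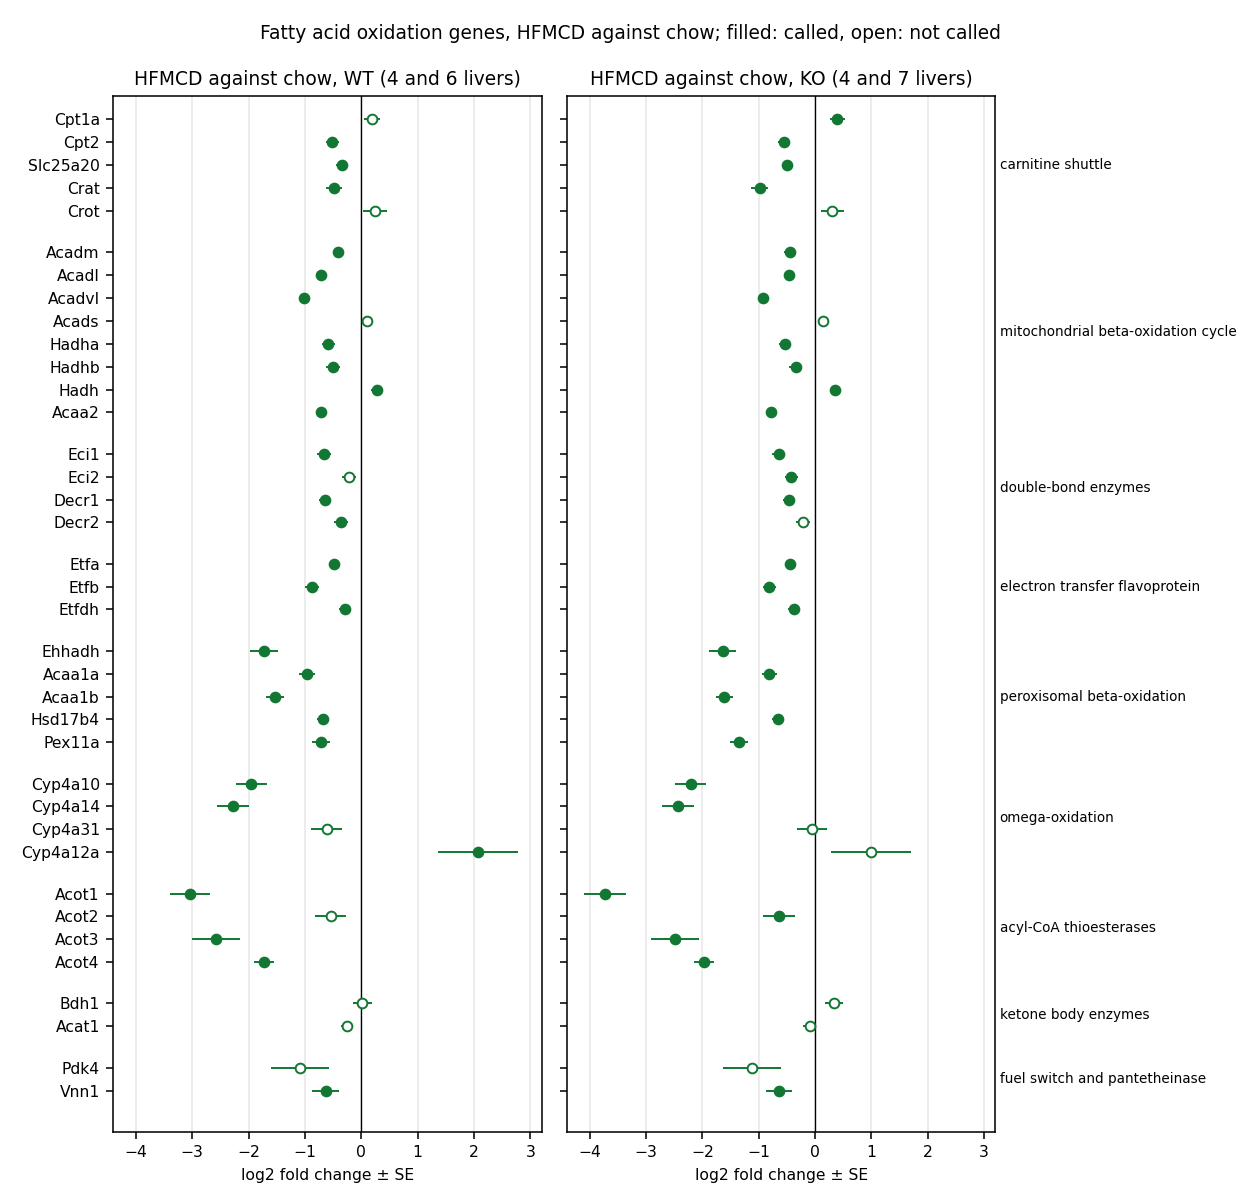
Log2 fold change of HFMCD against chow (horizontal axis, points with SE) for each of the 37 members by role, in WT livers at the left and in KO livers at the right; filled points passed the threshold. Acot1 lies farthest to the left in both genotypes, at -3.04 and -3.73, and Hadh is filled above 0 in both.

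In KO livers the same diet comparison called 27 members lower and 2 higher, against 36.0% and 33.7% of all tested genes, with a median of -0.55 against -0.02. The diets did not overlap in 24 members that were lower and 1 that was higher, and in 4281 and 4026 of all 15677 genes. This diet comparison shares no liver with the comparison in WT, but both came from 1 fit, and age went with diet in both. Of the members that fell, 25 were called in both genotypes. The same overlap was not counted over all tested genes, so it cannot be read as particular to the members. Decr2 was called in WT only, and Acot2 and Eci2 in KO only. The call of Acot2 in KO livers was lost in 12 of the 21 fits that left out 1 library, with an edgeR adjusted p of up to 0.14, and that of Vnn1 without KO HFMCD replicate 2, at 0.078. The interaction test given above is also the test of a difference in diet effect between genotypes, and it called no member.

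In KO livers too, Acot1, Cyp4a14 and Cyp4a10 were among the members with the lowest log2 fold changes. Acot1 fell at -3.73 (edgeR adjusted p = 4.3e-08, SE 0.36), from 241 to 377 CPM (median 299) on chow to 27.4, 17.8, 28.1 and 16.1 CPM on HFMCD. Cyp4a14 fell at -2.43 (edgeR adjusted p = 1.9e-07, SE 0.28), Cyp4a10 at -2.21 (edgeR adjusted p = 6.8e-07, SE 0.28), Ehhadh at -1.64 (edgeR adjusted p = 4.8e-06, SE 0.24) and Acaa1b at -1.61 (edgeR adjusted p = 2.5e-09, SE 0.15). Acadvl fell at -0.93 (edgeR adjusted p = 5.5e-09, SE 0.09) while Acads was not called at 0.14, and Hadh rose at 0.36 (edgeR adjusted p = 0.0017, SE 0.09). Acadl and Acadm fell by similar amounts in KO livers. Over fits that left out 1 library they had log2 fold changes of -0.49 to -0.42 and of -0.49 to -0.40. Cpt1a rose in KO livers, from 354 to 545 CPM (median 464) on chow to the HFMCD values above, a log2 fold change of 0.39 (edgeR adjusted p = 0.012, SE 0.13). Pex11a fell by 1.35 on the log2 scale in KO and by 0.72 in WT livers. Bdh1 and Acat1 were not called in KO livers, at 0.33 and -0.10.

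Markers of other cell types moved with diet as well. In WT livers 29.0% of all tested genes were called higher and 33.6% lower. Macrophage markers summed to 256 to 693 CPM in WT chow and 2178 to 2558 CPM in WT HFMCD livers, with 9 of 10 markers called higher. Stellate cell and matrix markers summed to 67.8 to 123 and 605 to 777 CPM, with 7 of 9 called higher. Hepatocyte markers summed to 108337 to 149757 CPM on chow and 104993 to 120833 CPM on HFMCD in WT livers, ranges that overlapped, with 6 of 11 called lower. The part of these shifts, and of the animals' feeding state, in the falls of the members was not tested. The citrate cycle, the mitochondrial pathway that burns acetyl-CoA, had 3 of 13 genes higher and 5 lower in WT livers, with a median of 0.05. These counts were near the shares of all tested genes.

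Livers of 1 group differed most in the WT HFMCD group, where the median SD of the members' log2 CPM was 0.25, against 0.17 to 0.20 in the other groups. WT HFMCD replicate 4 had the lowest level of its group for 33 of 37 members, and its level was 0.711 times the mean of the other 3 livers in the median over members. By role this ratio was 0.489 for the thioesterases, 0.383 for omega-oxidation, 0.598 for the peroxisomal members, 0.840 for the mitochondrial cycle and 0.877 for the ketone body enzymes. Expressed as the mean log2 CPM of all members minus the WT chow mean, this liver stood at -1.16. The other WT HFMCD livers stood at -0.46, -0.62 and -0.65, and the KO HFMCD livers ranged from -1.20 to -0.92.

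That liver matched its label by Mboat7, at 38.1 CPM. Its marker sums were 2444 CPM for macrophages, 42.7 for bile duct cells and 106909 for hepatocytes, against group ranges of 2178 to 2558, 42.7 to 50.5 and 104993 to 120833 CPM. Cidec was at 14.1 CPM in it and at 66.4, 43.7 and 42.6 CPM in the others. In log2 CPM the SD of a member over the WT HFMCD livers was 0.251 in the median, against 0.172 for all tested genes, and 28 of 37 members lay above that figure. In the other groups 13 to 15 members lay above the median of all genes.

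In the other groups no liver was lowest for so many members. KO HFMCD replicate 4 was lowest for 23 and replicate 3 highest for 18. On chow the most were 14 lowest in WT replicate 1 and 13 highest in WT replicate 4 and in KO replicate 5. The order of livers also differed by role: WT chow replicate 6, which had the highest Igfbp1 and Pck1, had 1.38 times the mean of the others for omega-oxidation but 0.632 times for the thioesterases, while WT chow replicate 1 had 0.685 and 1.41.

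**Figure D5:**
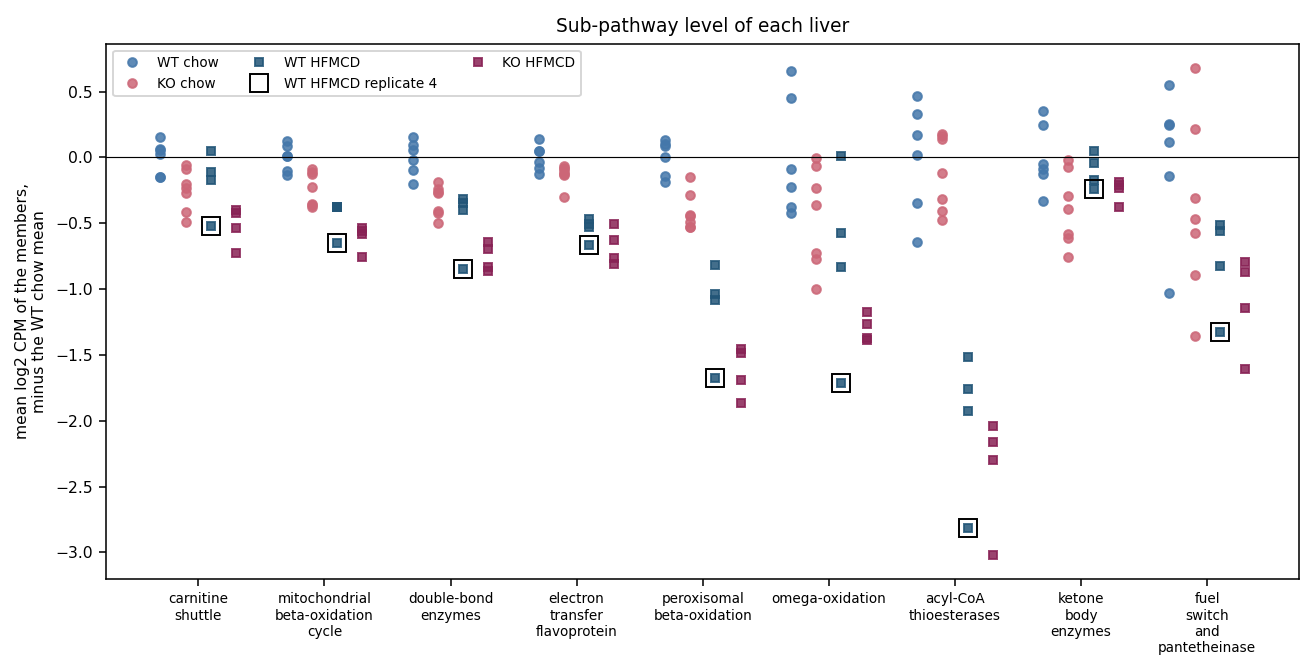
Mean log2 CPM of the members of each role in every liver, minus the WT chow mean (vertical axis), by group; squares mark HFMCD livers and the open frame marks WT HFMCD replicate 4. That liver is the lowest of its group in all 9 roles, and in KO HFMCD livers the lowest role means were -2.38 for the thioesterases, -1.62 for the peroxisomal members and -1.30 for omega-oxidation.

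Promoters were searched because many members moved together with diet. Of the members, 27 had 29 promoters in the RefSeq table (GRCm38.p6), each running from 250 bases before to 50 after the start. The search was for the direct repeat DR1, which PPAR-alpha binds with its partner RXR and which consists of 2 copies of AGGTCA with 1 base between them, on both strands, with up to 2 mismatches in its 12 fixed letters. Such a match lay in 3 member promoters (10.3%), those of Etfa, Slc25a20 and Acot4, and in 3.86% of all 32851 promoters. No member promoter had a match with fewer mismatches. A match is a description of letters and no evidence of a bound site, and known sites of such genes can lie outside this window.

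The 250 bases before the start are shown for both matches that lie there, with the match in capitals, and for Acot1, the member with the largest fall on HFMCD, and Cpt1a, the called member with the largest fall in KO chow livers, both without a match. The start is that of the RefSeq table, which for Cpt1a and Acot1 lies inside the gene span given above from GENCODE M21. The Etfa match begins 77 bases and the Acot4 match 13 bases before the start, both on the minus strand of the promoter as read. The Slc25a20 match, AGGTGAAAGGTCG, begins 7 bases into the transcript.
Etfa, minus strand, chr9:55512244-55512493: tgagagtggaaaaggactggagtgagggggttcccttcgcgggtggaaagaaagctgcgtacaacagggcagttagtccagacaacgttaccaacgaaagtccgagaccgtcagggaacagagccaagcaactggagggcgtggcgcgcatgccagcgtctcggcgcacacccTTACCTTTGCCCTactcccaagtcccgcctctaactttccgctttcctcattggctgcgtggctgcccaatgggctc
Acot4, plus strand, chr12:84038129-84038378: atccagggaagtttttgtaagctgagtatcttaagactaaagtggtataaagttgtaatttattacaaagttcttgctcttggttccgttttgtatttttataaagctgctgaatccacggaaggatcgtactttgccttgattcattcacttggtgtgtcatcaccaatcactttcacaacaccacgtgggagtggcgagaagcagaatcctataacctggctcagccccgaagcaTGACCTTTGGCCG
Acot1, plus strand, chr12:84009252-84009501: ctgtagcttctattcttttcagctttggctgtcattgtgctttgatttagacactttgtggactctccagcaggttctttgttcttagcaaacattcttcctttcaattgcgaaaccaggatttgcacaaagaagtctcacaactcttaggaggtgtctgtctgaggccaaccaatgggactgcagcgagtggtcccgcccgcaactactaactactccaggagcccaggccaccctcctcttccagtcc
Cpt1a, plus strand, chr19:3323051-3323300: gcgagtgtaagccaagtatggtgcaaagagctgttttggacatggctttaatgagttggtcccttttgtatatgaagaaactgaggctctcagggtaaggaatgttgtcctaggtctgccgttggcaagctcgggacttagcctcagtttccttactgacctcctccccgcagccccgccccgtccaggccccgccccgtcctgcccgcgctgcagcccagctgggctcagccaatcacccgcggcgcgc
The 3 members with a match did not share a size of change: on HFMCD in WT livers Acot4 had -1.73, Etfa -0.48 and Slc25a20 -0.34, while Acot1, without a match, had -3.04.

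Other genes of the pathway were followed in a list of 40 that contains no member. On chow, 4 fell and 1 rose in KO livers, where 1.61% of all tested genes were called lower and 0.561% higher. Those that fell were the branched-chain oxidase Acox2 at -0.46 (edgeR adjusted p = 0.032, SE 0.11), the racemase Amacr at -0.41 (edgeR adjusted p = 0.023, SE 0.09), the thiolase and carrier Scp2 at -0.30 (edgeR adjusted p = 0.035, SE 0.07) and the membrane protein chaperone Pex19 at -0.35 (edgeR adjusted p = 0.034, SE 0.08). All 4 have peroxisomal roles, as have many other genes of the list. The hydroxylase Cyp4f14 rose, at 0.69 (edgeR adjusted p = 0.021, SE 0.15). Of 13 citrate cycle genes the ketoglutarate dehydrogenase subunit Dlst fell, at -0.37 (edgeR adjusted p = 0.034, SE 0.09). On HFMCD 0 of the 40 and 0 of 13 were called between KO and WT.

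With diet in WT livers, 14 of the 40 fell and 8 rose, where 33.6% of all tested genes were called lower and 29.0% higher, so that the share that fell was near that of all genes. The largest changes by p were falls of Cyp4f15 at -1.05 (edgeR adjusted p = 1.9e-08, SE 0.11), the dienoyl-CoA isomerase Ech1 at -0.88 (edgeR adjusted p = 2.4e-08, SE 0.09), the coenzyme A carrier Slc25a42 at -1.18 (edgeR adjusted p = 4.8e-08, SE 0.13) and the peroxisomal thioesterase Acot8 at -1.14 (edgeR adjusted p = 1.9e-07, SE 0.14). All 9 regulators listed fell in WT livers on HFMCD. The mitochondrial deacetylase Sirt3 had -0.65 (edgeR adjusted p = 4.1e-07, SE 0.08), the coactivator Lpin1 -3.57 (edgeR adjusted p = 1.5e-04, SE 0.66), the transcription factor Creb3l3 -0.36 (edgeR adjusted p = 0.0022, SE 0.10) and the coactivator Ppargc1a -1.31 (edgeR adjusted p = 0.0030, SE 0.35). Ppara, named for its role after its values were seen, had -0.38 (edgeR adjusted p = 0.026, SE 0.15). Between KO and WT none of the 9 was called on either diet, with Ppara at -0.30 (edgeR adjusted p = 0.19, SE 0.12) on chow and -0.18 (edgeR adjusted p = 0.77, SE 0.16) on HFMCD.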

How the data were processed

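Whole-liver RNA of 21 mice was sequenced, and the authors deposited raw counts per gene symbol, 1 file per library. CASAVA 2.17, STAR 2.6.1d, featureCounts 1.6.1 and GRCm38 are named, without roles, per the submitters' processing notes. The annotation release and strand setting are not given in the sources used here. Positions and exon lengths are from GENCODE M21 (GRCm38), in which every symbol was found.

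Counts were fitted with edgeR 4.0.16 in R 4.3.3: filterByExpr by group left 15677 genes, libraries were scaled by TMM, and 1 robust quasi-likelihood model with 4 group means and no covariate gave 5 contrasts by two-sided F tests. The call threshold was an adjusted p of 0.05 (Benjamini-Hochberg, all genes tested). SE was obtained from the log2 fold change and the root of its F. CPM used the TMM-scaled total, log2 CPM a prior count of 2. The code was tested on simulated data. No 2 libraries of a group were identical. Libraries held 17502231 to 25822972 counts, without molecular identifiers, so that their precision covers counting error only.

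The members and all gene lists were chosen with earlier results of these data known. Values per liver are given for members called between KO and WT, or the 5 with the smallest p where fewer were called, for the 4 members with the smallest p in each direction with diet in WT, and for 3 in the interaction. A few further genes are given as values for their role. Of other lists up to 4 called genes with the smallest p were named. In 11 members (Acadvl, Hadha, Acaa1a, Acaa1b, Eci2, Etfdh, Bdh1, Acot3, Acot4, Crat and Crot) exons overlap an opposite-strand gene, and 14 members (Eci2, Bdh1, Acot1 to Acot4, Acaa1a, Acaa1b, Hadhb, Acadvl, Etfb, Cyp4a10, Cyp4a31 and Cyp4a12a) share more than 10% of their 50-base words with another gene, so that their counts are uncertain. Genes of these pathways outside the lists were not analysed here. A result of the feeding-state list is not reported here. Alternatives were upper-quartile or RLE scaling, DESeq2 1.42.0, quality-weighted limma-voom (limma 3.58.1), no filter, a filter of 1 CPM in 4 libraries, a required log2 fold change of at least 1 in size, fits to the compared groups only, and fits without single libraries, without KO chow replicates 1 and 7 and without the 4 libraries with Dmbt1.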

Additional observations from a re-analysis of the deposited data

Results flagged for a closer look

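A liver far from the others of its group, by Dixon's gap test, was found in 9 of 148 combinations of member and group and in 3 of 40 of mean level and group, the mean levels being those of the 9 roles and of all members together. Chance gives about 1 in 20 such sets. WT HFMCD replicate 4 was the low liver in 6 of the 9: Acadl at 258 CPM, Acadvl at 379.6 CPM, Acaa1b at 461 CPM, Eci1 at 98.8 CPM, Decr1 at 199 CPM and Hsd17b4 at 445 CPM. It was also the low liver for the mean log2 level, relative to the WT chow mean, of the mitochondrial cycle (-0.65) and of the double-bond enzymes (-0.85). KO chow replicate 1 was low for Etfa at 442 CPM and for the level of the electron transfer flavoprotein genes at -0.30. WT chow replicate 2 was low for Cpt2 at 223 CPM, and KO HFMCD replicate 4 for Acat1 at 431 CPM.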

How the results depend on the processing

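No called value turned direction. The median of the difference of KO effects between diets, with no member called, lay on both sides of 0, from -0.12 to 0.06 when leaving out 1 library. Of members called between KO and WT on chow, where the value reported is 6, DESeq2 gave 12, limma-voom with quality weights 1, the fit to the chow livers only 0, the fit without KO chow replicates 1 and 7 gave 1, that without the 4 livers with Dmbt1 gave 1, the required fold 0, and leaving out 1 library at a time 0 to 10. Between KO and WT on HFMCD, with 0 reported, DESeq2 gave 2 and leaving out 1 library gave 0 to 2. Under the required fold, 9 members were called with diet in WT and 8 in KO, against 28 and 29. The other 136 counts of called members were within 1.5 times the reported ones, and all 149 medians moved by less than 1 SD between livers of a group. Of single members, 92 calls were lost and 3 gained over all alternatives, against 2032 that kept their side. A fold threshold leaves fewer calls by construction; the cause of the other changes was not tested. The fewest counts belonged to Cyp4a12a, at most 2.14 CPM. No paired analysis was possible because the labels give no replicate numbers that groups share.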
